A study of Mus musculus with 9 samples.

Results

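The genes described here make cholesterol and fatty acids, control that synthesis through the sterol-sensing transcription factors called SREBPs, or export sterol. They were chosen by name as a list of 37 genes, which is 37 of the 53380 rows of each expression table, and the list was drawn up with earlier results of these data known. Their RNA was measured in a mouse line of T-ALL (T cell acute lymphoblastic leukemia) in which a human MYC transgene (hMYC) can be turned down with doxycycline. Cells were harvested after 48 hours without the drug (mock treatment, MYC on), with 20 pg/mL doxycycline (MYC intermediate) or with 500 pg/mL doxycycline (MYC off), and each group had 3 libraries. All groups carried the same EμSRα-tTA and tet-O-MYC transgenes in cells that came from tumors of FVB/N mice, and the tTA protein drives the transgene until doxycycline blocks it. The MYC level and the doxycycline dose changed together, so effects of the drug and of MYC cannot be told apart in these data. Whether the cells sequenced were 1 clone, and whether replicates were separate cultures, is not given in the sources used here, so a p-value here speaks to the spread among the libraries at hand.

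Cholesterol is built from acetyl-CoA. Enzymes of the mevalonate arm make isoprenoid units and farnesyl diphosphate, squalene is formed and closed into lanosterol, and a series of oxidations, reductions and isomerizations turns lanosterol into cholesterol. Fatty acids are built from the same acetyl-CoA by acetyl-CoA carboxylase and fatty acid synthase, then desaturated and elongated. When sterol in the endoplasmic reticulum is low, the escort protein SCAP carries SREBP precursors to the Golgi, where proteases release the active factor. When sterol is high, INSIG proteins hold SCAP back. Dividing lymphocytes are known to need new membrane lipid, and MYC is a transcription factor of cell growth that binds the DNA letters CACGTG together with its partner MAX.

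The libraries held 18705516 to 39678799 counts, and Pearson's r between replicates was 0.988 to 0.997 (log2 CPM, computed across genes, which are not independent). CPM are counts scaled to a library total of 1000000, and 3 counts correspond to 0.0756 to 0.16 CPM. Levels and fold changes are therefore relative to the other RNA of a library and are not amounts per cell. The transgene followed the labels, with hMYC averaging 1260 ± 75.4 CPM with MYC on, 408.3 ± 23.0 CPM at the intermediate dose and 3.78 ± 0.454 CPM with MYC off (± SD over 3 libraries). The intermediate dose left 32.4% of the mock-treated level. The labelled cell type was also visible, since none of 12 T cell markers was at 0 and their summed level was 5875 to 6089 CPM with MYC on, 9371 to 9615 CPM at the intermediate dose and 11932 to 12296 CPM with MYC off. The summed T cell markers were higher where the lipid genes were lower, and their part in the results was not tested. Hepatocyte and adipocyte markers, from cells that make much lipid, summed to at most 0.0371 CPM in any library. Myeloid markers summed to 26.9 to 31.3 CPM with MYC on, 32.5 to 36.2 CPM at the intermediate dose and 41.1 to 44.1 CPM with MYC off, with 3 of 6 at 0 in every library. In bulk RNA, fewer cells of a kind and less RNA per cell cannot be told apart.

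Most synthesis genes were lower in MYC off than in MYC on. Of the 37 genes, 35 passed the filter on low counts. Abca1 and Fads2 did not. Between MYC off and MYC on, 24 of the 35 fell and 3 rose at an adjusted p under 0.01 (edgeR's quasi-likelihood test, Benjamini-Hochberg adjustment over 14098 genes). Those 24 are 68.6% of the tested members, where 27.4% of all tested genes fell and 27.5% rose. The median log2 fold change of the 35 was −0.68, against 0.03 over all tested genes. A log2 fold change below −1 with an adjusted p under 0.01 was found in 8 of the 35 and in 10.8% of all tested genes. The 37 genes together took 0.785% ± 0.0156 of the counts in MYC off, against 1.23% ± 0.038 in MYC on (SD, n = 3 each). In MYC intermediate their share was 1.01% ± 0.0186, between the other groups and overlapping neither.

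**Figure D1:**
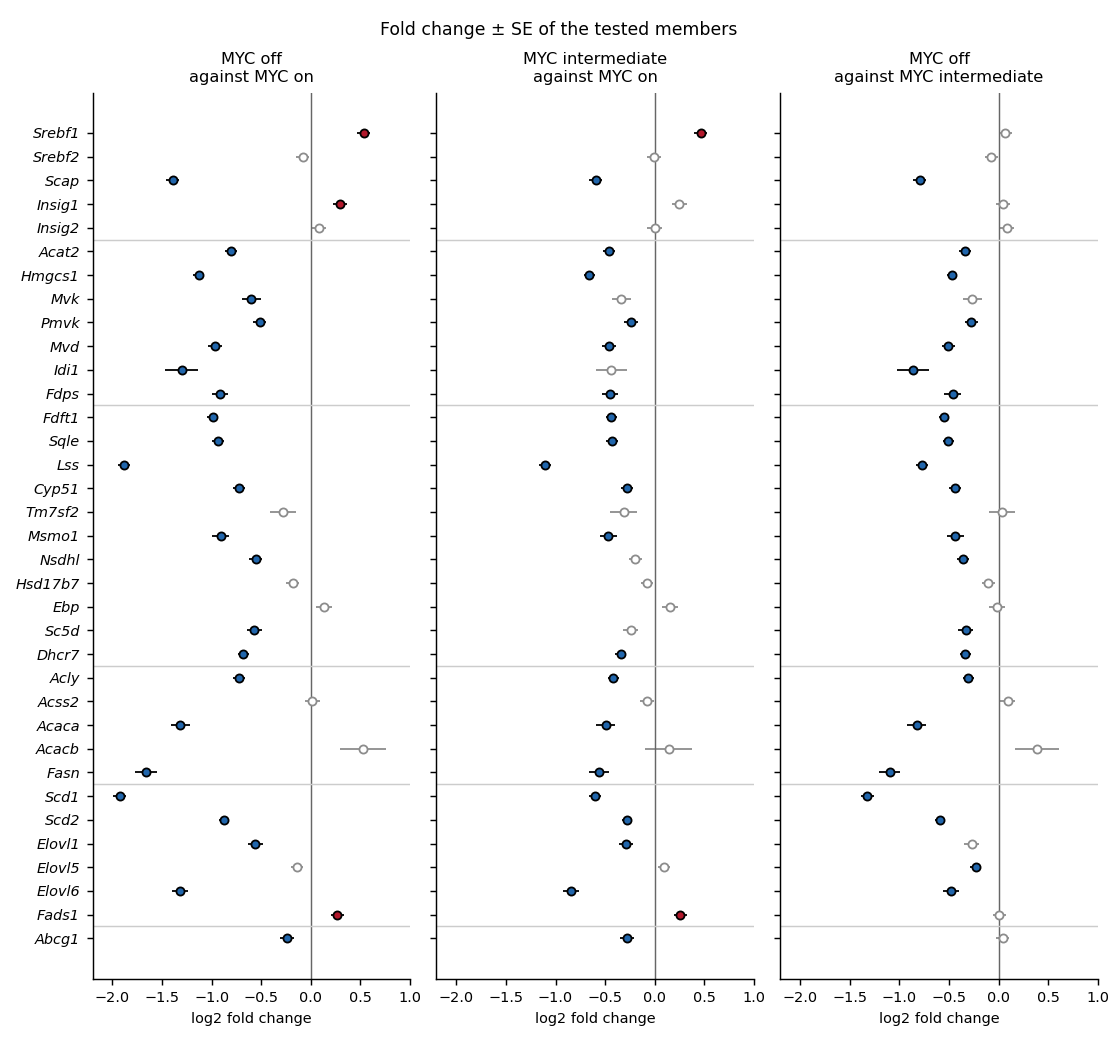
Log2 fold change (x axis) with its standard error (bars) for the 35 tested genes, down the page in pathway order with lines between roles, in the 3 comparisons. Filled points passed an adjusted p under 0.01 (blue lower, red higher) and open points did not. Filled points lie left of 0 for 24 genes in MYC off against MYC on, and right of 0 for Srebf1, Insig1 and Fads1.

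As counted, the largest falls were spread over the pathway rather than held by 1 step. They were those of the stearoyl-CoA desaturase Scd1, lanosterol synthase Lss, fatty acid synthase Fasn, the SREBP escort Scap, the acetyl-CoA carboxylase Acaca, the fatty acid elongase Elovl6, isopentenyl diphosphate isomerase Idi1 and the HMG-CoA synthase Hmgcs1. The reads of Lss, Scap, Acaca, Elovl6, Idi1 and Hmgcs1 cannot all be assigned to 1 gene, because other genes share their sequence. Each shares exon sequence with a gene that had counts, or over 5% of its 50-base windows. With such genes set aside, only Scd1 and Fasn, both fatty acid genes, fell by more than 1 log2 unit. The largest falls of sterol genes left were Mvd (−0.97) and Sqle (−0.94). The spread of the largest falls therefore rests on genes that share sequence. The summed levels by role were also lower, except for the SREBP control genes. In MYC off the mevalonate genes were at 52.9%, the genes from squalene to cholesterol at 55.0%, the fatty acid synthesis genes at 47.2% and the desaturases and elongases at 58.6% of their summed CPM in MYC on. The SREBP control genes stood at 115.8%, a sum that Srebf1 and Srebf2 dominate.

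RefSeq start sites (GRCm38.p6) were found for 30 of the 37, and windows of 250 bases before to 50 bases after each start were searched on both strands for CACGTG (the E box, its own reverse complement), TCACNCCAC (the core of a sterol response element, reverse GTGGNGTGA) and CCAAT (reverse ATTGG, the site of NF-Y, a known partner of SREBPs). The 250 bases before the start are shown for 4 genes, written 5′ to 3′ on the strand of the gene, with every match in capitals. Hmgcs1 is shown because it held the only sterol core, Lss as the sterol enzyme with the largest fall, and Scap and Insig1 because both held an E box while Scap fell and Insig1 rose.
Hmgcs1 (chr13:119690101-119690350, + strand): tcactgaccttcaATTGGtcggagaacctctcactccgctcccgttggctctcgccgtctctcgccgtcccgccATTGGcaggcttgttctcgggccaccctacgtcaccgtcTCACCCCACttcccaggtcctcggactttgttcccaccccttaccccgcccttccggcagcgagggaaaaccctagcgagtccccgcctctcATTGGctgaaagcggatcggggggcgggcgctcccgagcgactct
Lss (chr10:76531355-76531604, + strand): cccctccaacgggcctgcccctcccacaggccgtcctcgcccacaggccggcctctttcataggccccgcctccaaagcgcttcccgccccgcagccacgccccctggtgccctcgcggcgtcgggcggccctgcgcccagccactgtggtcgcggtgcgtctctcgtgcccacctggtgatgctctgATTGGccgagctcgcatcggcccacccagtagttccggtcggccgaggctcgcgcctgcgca
Scap (chr9:110333106-110333355, + strand): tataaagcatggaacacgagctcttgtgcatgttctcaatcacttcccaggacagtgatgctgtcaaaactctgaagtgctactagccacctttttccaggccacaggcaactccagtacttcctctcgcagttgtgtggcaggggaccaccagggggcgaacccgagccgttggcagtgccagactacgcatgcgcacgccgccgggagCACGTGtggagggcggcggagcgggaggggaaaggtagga
Insig1 (chr5:28071162-28071411, + strand): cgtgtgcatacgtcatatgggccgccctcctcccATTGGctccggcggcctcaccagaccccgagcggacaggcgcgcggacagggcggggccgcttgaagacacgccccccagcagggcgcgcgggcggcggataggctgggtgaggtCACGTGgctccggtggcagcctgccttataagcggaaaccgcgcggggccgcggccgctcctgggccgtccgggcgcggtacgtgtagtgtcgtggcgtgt
In Hmgcs1 the sterol core began 137 bases before the start, with CCAAT letters 237, 176 and 45 bases before it. The E box began 40 bases before the start in Scap and 101 bases before it in Insig1, and Lss had CCAAT letters 62 bases before its start and neither other motif.

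The E box letters were in the windows of 7 of the 30 genes (23.3%), against 8.09% of 27025 genes in the same table. Of these 7, Scap, Dhcr7 and Sc5d fell between MYC off and MYC on, Insig1 rose, Hsd17b7 and Elovl5 did not pass the test, and Abca1 was not tested. In that comparison 68.6% of the tested members fell, and of all tested genes 27.4% fell and 27.5% rose. The sterol core was in 1 of 30 (3.33%), against 1.44% of all genes, and no window held both it and an E box. CCAAT was in 24 of 30 (80.0%), against 41.1% of all genes. Of those 24, 14 fell, 2 rose and 8 did not pass the test, to be read beside the same shares. The tested members without CCAAT in their windows, Acaca, Acat2, Elovl6 and Scap, all fell. Whether a motif and a call go together was not tested. A gene with several or overlapping matches, such as Fasn, was counted once. These are matches of letters in a short window, not sites shown to be bound, and a missing match says only that the letters were not in the window.

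The control genes did not move as a block, and the escort fell while its cargo did not. Scap (ENSMUSG00000032485.14) had 122.4, 119.1 and 133.8 CPM in MYC on, 79.1, 84.5 and 83.0 at intermediate MYC and 48.5, 47.5 and 50.4 in MYC off. No 2 groups overlapped, and Scap in MYC off was at 38.0% of its MYC on level, a log2 fold change of −1.39 ± 0.06 (SE, adjusted p = 3.6e-11). Srebf1 (ENSMUSG00000020538.15), whose product favours fatty acid genes, went the other way, with 766.7, 783.1 and 901.3 CPM in MYC on, 1048, 1182 and 1134 at intermediate MYC and 1194, 1192 and 1246 in MYC off. Every MYC intermediate and MYC off library lay above every MYC on library, and the log2 fold change in MYC off was 0.53 ± 0.07 (adjusted p = 3.4e-06). The gene-level counts do not separate the isoforms that Srebf1 is known to produce. Srebf2 (ENSMUSG00000022463.7), whose product favours cholesterol genes, had 868.1, 802.8 and 884.4 CPM in MYC off and 897.0, 800.5 and 942.0 in MYC on. These groups overlapped, and its log2 fold change was −0.08 ± 0.07 (adjusted p = 0.31).

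The INSIG genes, whose products retain SCAP in the endoplasmic reticulum, also did not follow the enzymes. Insig1 (ENSMUSG00000045294.11), itself a known SREBP target, had 31.9, 32.3 and 34.3 CPM in MYC off and 27.1, 25.6 and 25.8 in MYC on. The groups did not overlap, and the log2 fold change was 0.29 ± 0.07 (adjusted p = 0.0023). Without MYC on replicate 2 or MYC off replicate 3 this call was lost (adjusted p = 0.014 and 0.012), as it was without the count filter (adjusted p = 0.013). Insig2 (ENSMUSG00000003721.14) had a log2 fold change of 0.09 ± 0.07 (adjusted p = 0.32).

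**Figure D2:**
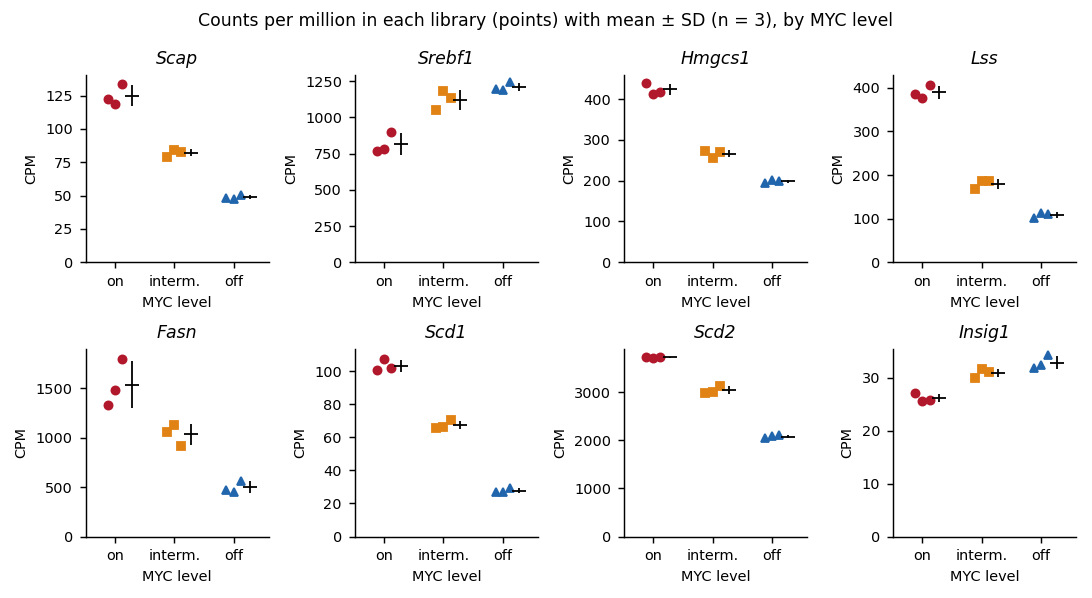
CPM (y axis, from 0) of 8 genes in each of the 9 libraries by MYC level (x axis, low to high doxycycline), with 1 point per library and the mean ± SD of 3 libraries beside it. Scap, Hmgcs1, Lss, Fasn, Scd1 and Scd2 stepped down at both doses, while Srebf1 and Insig1 stood higher in both doxycycline groups than in MYC on.

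All 7 mevalonate arm genes fell between MYC off and MYC on, with log2 fold changes of −0.52 to −1.30. Hmgcs1 (ENSMUSG00000093930.2), which condenses acetoacetyl-CoA with acetyl-CoA, had 438.8, 413.4 and 418.1 CPM in MYC on, 271.9, 256.0 and 271.0 at intermediate MYC and 193.6, 200.4 and 200.3 in MYC off. The groups were fully separate, with a log2 fold change of −1.13 ± 0.05 in MYC off (adjusted p = 3.9e-11). Idi1 (ENSMUSG00000058258.14), which interconverts the isoprenoid units, was the most variable gene of the arm. It had 54.5, 54.4 and 45.9 CPM in MYC on, 50.8, 33.7 and 28.3 at intermediate MYC and 22.6, 21.6 and 19.9 in MYC off. MYC off lay below both other groups, with a log2 fold change of −1.30 ± 0.16 against MYC on (adjusted p = 4.4e-06), while 1 MYC intermediate library lay within the MYC on range. The remaining enzymes were the acetoacetyl-CoA thiolase Acat2 (−0.80), mevalonate kinase Mvk (−0.60), phosphomevalonate kinase Pmvk (−0.52), mevalonate diphosphate decarboxylase Mvd (−0.97) and farnesyl diphosphate synthase Fdps (−0.92), all past the test as log2 fold changes in MYC off against MYC on.

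Of the 11 genes from squalene to cholesterol, 8 fell and 3 did not pass the test. Lss (ENSMUSG00000033105.12), which closes oxidosqualene into lanosterol, had 386.5, 378.0 and 407.0 CPM in MYC on, 167.1, 187.3 and 185.7 at intermediate MYC and 101.7, 112.6 and 111.6 in MYC off. It was the only gene of the 35 to lose more than 1 log2 unit already in MYC intermediate (−1.11 ± 0.06 against MYC on, adjusted p = 1.5e-09), and in MYC off its log2 fold change was −1.88 ± 0.06 (adjusted p = 5.5e-13). Its neighbours in the pathway had log2 fold changes nearer 0, a difference that was not tested. Squalene synthase Fdft1 (−0.99) and squalene epoxidase Sqle (−0.94), the steps before Lss, and the lanosterol demethylase Cyp51 (−0.72) after it, fell by 1 log2 unit or less in MYC off against MYC on. The sterol methyl oxidase Msmo1 (−0.91), the decarboxylating dehydrogenase Nsdhl (−0.56), the desaturase Sc5d (−0.57) and the last reductase Dhcr7 (−0.68) also fell.

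The 3 genes of this group that did not pass the test differed in level. The sterol reductase Tm7sf2 was low in every library, with 6.10, 8.95 and 7.44 CPM in MYC off and 8.27, 9.52 and 8.69 in MYC on (log2 fold change −0.28 ± 0.13, adjusted p = 0.079). The ketoreductase Hsd17b7 had a log2 fold change of −0.18 ± 0.06 (adjusted p = 0.018), and passed in a fit of only the 6 libraries compared (adjusted p = 0.0062) and without MYC intermediate replicate 1 (adjusted p = 0.0096), and the sterol isomerase Ebp had 0.14 ± 0.08 (adjusted p = 0.15). Lbr, a nuclear envelope protein with the same reductase activity as Tm7sf2, was far more abundant on the length-scaled TPM scale, at 1561 TPM in MYC off and 1128 TPM in MYC on, against 7.21 TPM in MYC off and 8.53 TPM in MYC on for Tm7sf2. Lbr rose, with a log2 fold change of 0.44 ± 0.05 in MYC off against MYC on (adjusted p = 8.1e-07).

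Among the 5 genes of acetyl-CoA supply and fatty acid synthesis, Acly, Acaca and Fasn fell, while Acss2 and Acacb did not pass the test. Fasn (ENSMUSG00000025153.9) had 1331, 1482 and 1793 CPM in MYC on, 1054, 1125 and 916.4 at intermediate MYC and 473.6, 452.8 and 565.0 in MYC off. Its groups did not overlap, with a log2 fold change of −1.66 ± 0.11 in MYC off (adjusted p = 1.9e-09). Acaca, which makes malonyl-CoA in the cytosol, had 42.4, 48.3 and 52.5 CPM in MYC off and 101.8, 126.0 and 120.3 in MYC on (−1.32 ± 0.10, adjusted p = 7.5e-09). ATP citrate lyase Acly, which makes cytosolic acetyl-CoA from citrate, was second in TPM among the 37 genes in MYC on and fell by 0.72 ± 0.06 on the log2 scale in MYC off (adjusted p = 2.6e-08).

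Acss2, which makes acetyl-CoA from acetate, showed no detectable difference, with 65.7, 68.0 and 64.1 CPM in MYC off and 67.6, 61.0 and 62.6 in MYC on (log2 fold change 0.01 ± 0.07, adjusted p = 0.88). Acacb, the mitochondrial carboxylase known for restraining fatty acid oxidation, was scarce, with 3.73, 6.20 and 4.40 CPM in MYC off and 3.79, 2.94 and 2.90 in MYC on. The groups overlapped, and its log2 fold change of 0.53 ± 0.23 did not pass the test (adjusted p = 0.056).

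Desaturases and elongases are described by the kind of fatty acid they are known to act on, a grouping made after the values were seen and with no test between the kinds. All 4 genes of saturated and monounsaturated fatty acids fell. Scd1 (ENSMUSG00000037071.2), which makes oleate from stearate, had 100.7, 107.2 and 101.6 CPM in MYC on, 65.7, 66.1 and 70.3 at intermediate MYC and 26.9, 27.0 and 29.4 in MYC off, the largest fall of the 35 genes (log2 fold change −1.93 ± 0.06, adjusted p = 9.0e-13). Its paralog Scd2 (ENSMUSG00000025203.5) was the most abundant of the 37 genes in every group by TPM, and took 29.2 to 30.6% of their counts in MYC on. Scd2 had 2037, 2092 and 2101 CPM in MYC off and 3729, 3700 and 3729 in MYC on (−0.87 ± 0.05, adjusted p = 2.5e-10). Elovl6, which extends palmitate to stearate, fell by 1.32 ± 0.08 on the log2 scale and Elovl1, for very long saturated chains, fell by 0.56 ± 0.08 in MYC off against MYC on (adjusted p = 1.1e-09 and 9.0e-06).

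Of the 3 genes of polyunsaturated fatty acids, 1 rose, 1 did not pass the test and 1 was too scarce to be tested. The delta-5 desaturase Fads1 had 131.6, 138.2 and 139.4 CPM in MYC off and 107.4, 112.7 and 111.6 in MYC on, separate groups with a log2 fold change of 0.27 ± 0.06 (adjusted p = 0.0015). The elongase Elovl5 was lower in every MYC off library than in every MYC on library, but its log2 fold change of −0.14 ± 0.06 did not pass the test (adjusted p = 0.054). The delta-6 desaturase Fads2 was at or near the limit of 3 counts, with 5, 5 and 10 counts in MYC on, 4, 2 and 9 counts in MYC intermediate and 12, 5 and 12 counts in MYC off. A difference was not detectable at this depth.

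The sterol exporters are known targets of the LXR receptors, which sense oxidized sterols. Abcg1 had 39.6, 41.5 and 41.9 CPM in MYC off and 45.5, 46.7 and 49.5 in MYC on, a log2 fold change of −0.24 ± 0.07 (adjusted p = 0.0061). This call was lost when any of the 6 compared libraries was left out (adjusted p of 0.011 to 0.033). Abca1 had 0, 2 and 16 counts in MYC off and 3, 0 and 2 counts in MYC on, too few to compare.

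**Figure D3:**
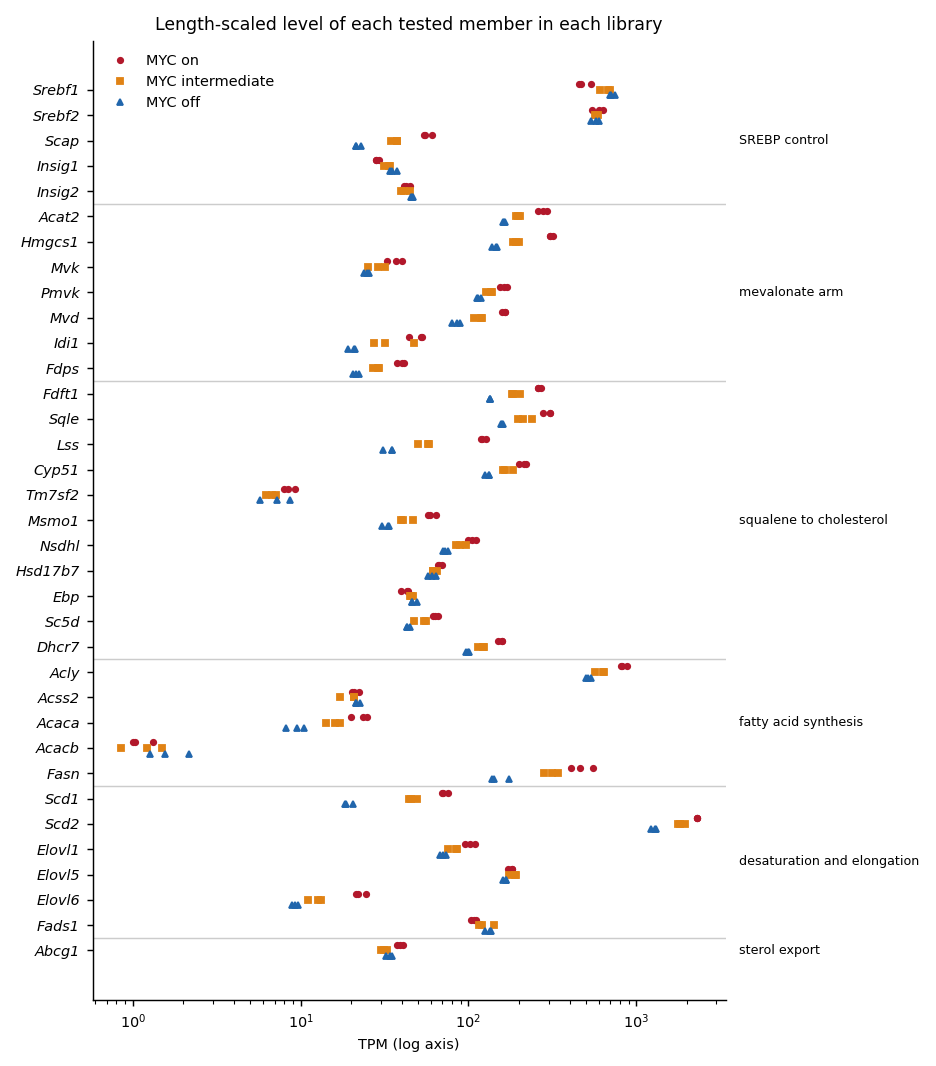
TPM (x axis, log scale) of the 35 tested genes in each library, 1 point per library, down the page in pathway order with the MYC level given by color and shape. Scd2 is the rightmost gene at all 3 levels, and Tm7sf2 and Acacb are the leftmost.

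Most of the genes lay at an intermediate level when MYC did. Between MYC intermediate and MYC on, 20 of the 35 genes fell and 2 rose, where 17.2% of all tested genes fell and 17.4% rose, and the median log2 fold change was −0.31. Between MYC off and MYC intermediate, 22 fell and none rose, where 14.7% of all tested genes fell and 9.95% rose, with a median of −0.34. These comparisons share libraries, so their counts are not independent. The risers of the first step were Srebf1 (0.47 ± 0.07, adjusted p = 3.1e-05) and Fads1 (0.26 ± 0.06, adjusted p = 0.0032), and the Fads1 call was lost without MYC on replicate 1 or 2 or MYC intermediate replicate 3. Of the 24 genes that fell between MYC off and MYC on, 18 passed the test at both steps. Abcg1 and Elovl1 passed only at the first step, Idi1, Nsdhl and Sc5d only at the second, and Mvk at neither. The Mvk value at the first step lay close to the threshold (adjusted p = 0.011) and passed it under 7 of the alternatives, DESeq2 among them (adjusted p = 0.0045). With the replicate number as a block, Idi1 (adjusted p = 0.0017) and Sc5d (adjusted p = 0.0060) also passed at the first step and Elovl1 (adjusted p = 0.0096) at the second. Idi1 passed at the first step too without MYC intermediate replicate 1, the library that stood apart for it (log2 fold change −0.73, adjusted p = 3.4e-05). Elovl5 fell only between MYC off and MYC intermediate (−0.23 ± 0.06, adjusted p = 0.0059).

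The position of MYC intermediate between the other groups was taken as a share of the log2 change, with 0 at the MYC on level and 1 at the MYC off level, for the 24 called genes with an absolute log2 fold change above 0.5. The 23 that fell had a median position of 0.467, and 14 of them lay under 0.5. The lowest positions were those of Scd1 (0.313), Scd2 (0.321), Idi1 (0.336) and Fasn (0.338), for which the larger share of the log2 change came at the second step. Idi1 stood at 0.559 without MYC intermediate replicate 1. The highest among the falling genes were Elovl6 (0.638) and Lss (0.588). Srebf1 had completed most of its rise at intermediate MYC, at 0.877. A test of the intermediate group against the mean of both outer groups passed for Scd1 alone (log2 difference 0.36 ± 0.05, adjusted p = 9.0e-04), where 1.7% of all tested genes lay above and 0.184% below that mean. The other positions could not be told from midway by this test.

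**Figure D4:**
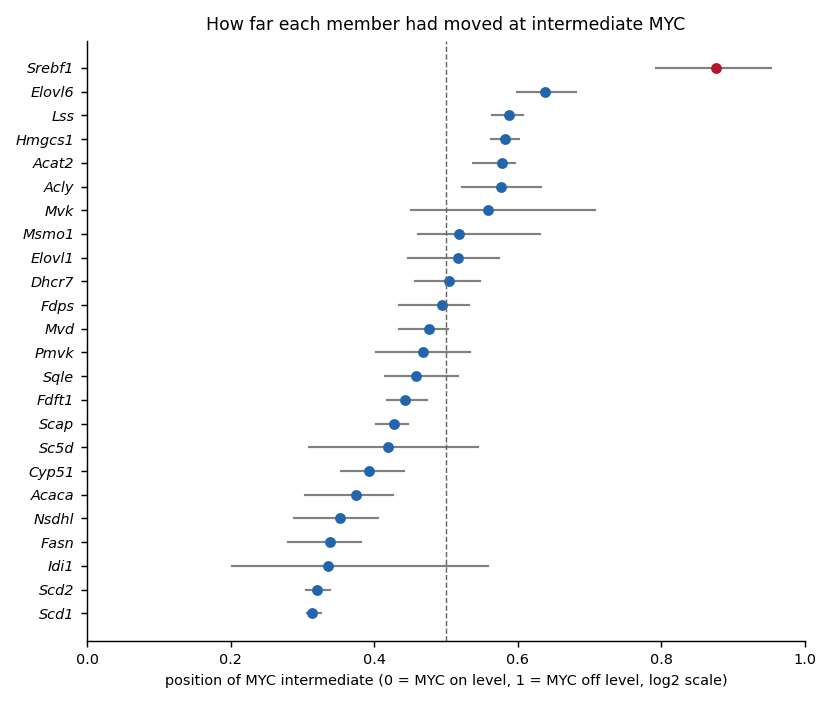
Position of MYC intermediate (x axis, 0 at the MYC on level, 1 at the MYC off level, log2 scale) for 24 genes in ascending order from the bottom, with the range when 1 library at a time is left out (lines) and midway dashed. Scd1 is lowest at 0.313 and Srebf1, the only gene drawn in red because it rose, is highest at 0.877. Idi1 has the widest range, 0.201 to 0.559.

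Ratios of related genes within a library do not depend on the scaling between libraries. The Scd1 to Scd2 ratio of TPM was 0.0151 ± 0.000614 in MYC off and 0.0313 ± 0.00121 in MYC on. Scd2, the more abundant paralog, therefore gained weight in the pair. The Acaca to Acacb ratio was 5.84 ± 1.26 in MYC off and 20.9 ± 5.00 in MYC on. The Srebf1 to Srebf2 ratio was 1.26 ± 0.0497 in MYC off and 0.823 ± 0.0584 in MYC on. The Insig1 to Insig2 ratio was 0.768 ± 0.0489 in MYC off and 0.664 ± 0.0153 in MYC on. In each of these 4 ratios the MYC off and MYC on libraries were separate, with an exact two-sided permutation p of 0.1, the smallest that 3 against 3 libraries can give (SD, n = 3 each).

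**Figure D5:**
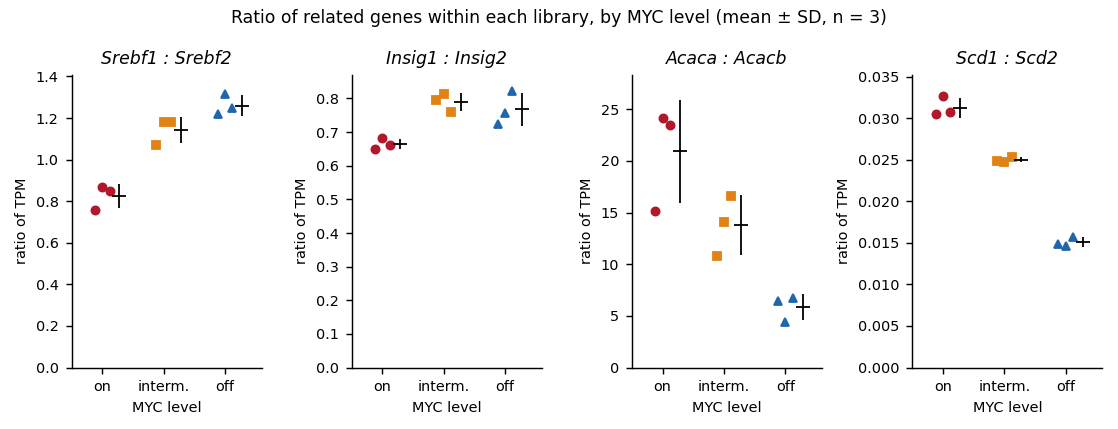
Ratio of TPM (y axis, from 0) of 4 pairs of related genes in each library by MYC level (x axis), with 1 point per library and the mean ± SD of 3 libraries beside it. The Scd1 to Scd2 and Acaca to Acacb ratios are lowest in MYC off, and the Srebf1 to Srebf2 ratio is highest there.

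Other genes of the same metabolism moved in either direction. Their counts are to be read beside all tested genes, of which 27.4% fell and 27.5% rose between MYC off and MYC on. Among 9 tested genes of sterol synthesis, uptake and handling outside the 37, 4 fell and 4 rose between MYC off and MYC on. The sterol carrier Stard4 fell (−1.01 ± 0.07). The lysosomal acid lipase Lipa, which frees cholesterol from imported esters, rose by the largest amount of this list (1.55 ± 0.06, adjusted p = 9.9e-12), and the acyltransferase gene Soat1, whose product stores cholesterol as esters, rose by 0.56 ± 0.08 (adjusted p = 1.4e-05).

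Of 10 genes of SREBP processing and sterol-regulated degradation, 5 fell and 2 rose, among them the SREBP-cleaving protease Mbtps1 (−0.51 ± 0.06) and the ER lipid raft protein Erlin1 (−0.93 ± 0.07). Of 8 tested LXR genes, 1 fell and 2 rose, with the lipoprotein gene Apoe at −1.47 ± 0.26, the ubiquitin ligase Mylip at 0.77 ± 0.12 and the receptor Nr1h2 at 0.46 ± 0.06. Of 12 genes on isoprenoid branches, 5 fell and 1 rose, including the ubiquinone genes Pdss1 (−1.17 ± 0.09), Coq2 (−1.07 ± 0.09) and Pdss2 (−0.82 ± 0.11) and the dolichol gene Nus1 (−0.97 ± 0.07). Of 18 further fatty acid synthesis, activation and elongation genes, 10 fell and 1 rose, including the mitochondrial citrate carrier Slc25a1 (−1.38 ± 0.08), which feeds Acly, and the mitochondrial reductase Mecr (−1.51 ± 0.08). Of 17 tested fatty acid oxidation genes, 8 fell and 2 rose, with the dehydrogenase Hadh at −0.997 ± 0.07. Over all tested genes 27.4% fell and 27.5% rose, and no list was tested as a set. All values are log2 fold changes ± SE in MYC off against MYC on, and each named gene passed an adjusted p under 0.01.

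The library kit does not mark the strand, and 11 of the tested genes share exon sequence with another gene that had counts, so reads of the pair cannot be told apart there. The mean CPM of such partners, for which no test is given, went in either direction. Partners were lower in MYC off than in MYC on at Lss, Scap, Hmgcs1, Fdft1, Idi1 and Elovl6, genes that also fell. They were higher at Srebf1, which rose, at Elovl1 and Cyp51, which fell, and at Tm7sf2, which did not pass the test. At Acss2 they differed in direction. The antisense gene 4930483K19Rik at Lss had 20.1 CPM in MYC off and 77.9 CPM in MYC on, 5830462I19Rik at Scap had 16.2 and 44.6 CPM in the same groups, Gm48342 at Hmgcs1 had 89.1 and 194.8 CPM, and Ctsb at Fdft1 had 1174 and 2656 CPM. Rai1 at Srebf1 had 144.7 CPM in MYC off and 84.1 CPM in MYC on, and Cdc20 at Elovl1 had 703.0 and 495.7 CPM in the same groups. Vps51 shares 532 exon bases with Tm7sf2 on the same strand and had 86.6 CPM in MYC off and 77.2 CPM in MYC on. The low level of Tm7sf2 comes with that limit. Acaca, Acat2 and Fdps also share 52.6%, 45.9% and 86.4% of the 50-base windows of their longest coding transcript with other annotated genes. For Acaca these windows were in Gm5182 and for Acat2 chiefly in Acat3. For Fdps they were chiefly in Gm43738, a gene that overlaps it on the same strand and had 0 CPM in every group. Genes with an exon partner that had counts, or with over 5% of such windows shared, were then set aside. Among the 21 tested genes left, 13 fell, 2 rose and 6 did not pass the test between MYC off and MYC on, where 27.4% of all tested genes fell and 27.5% rose. Their median log2 fold change was −0.56, and Fasn, Scd1, Scd2, Acly and Sqle were among those that fell. Of these 21, only Fasn and Scd1 fell by more than 1 log2 unit. Scd1 and Scd2 still shared 4.66% and 4.01% of their windows with other genes, in part with each other.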

How the data were processed

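RNA of 9 libraries (3 each of MYC on, MYC intermediate and MYC off) was measured from polyadenylated RNA copied with oligo(dT) priming (SMART-Seq v4, Nextera XT). Trimming, alignment and counting tools named in the submitters' processing notes are cutadapt 1.16, STAR 2.5.4b and featureCounts, with build mm10. The annotation release and strand setting are not given in the sources used here. The authors deposited whole-number counts per gene and TPM, which are length-scaled values. GENCODE M21 matched 53274 identifiers. Counts were tested in R 4.3.3 with edgeR 4.0.16 (TMM, default count filter, 14098 genes, all 9 libraries in 1 fit, no block) and called where the adjusted p was below 0.01. Fold changes are the group named first over the other. DESeq2 1.42.0, other scalings and filters, a replicate block, thinning and leaving out each library were alternatives. The code was tested on simulated data. Limits of 3 counts cover counting error only, since PCR reads are not independent molecules. Deviations of same-numbered MYC off and MYC on libraries correlated (r = 0.416, 0.285 and 0.254). The values were 0.138, −0.212 and −0.183 for MYC intermediate and MYC on, and 0.385, 0.015 and 0.088 for MYC off and MYC intermediate. Differently numbered libraries were not compared, so whether the numbers pair the libraries was not tested. What the number stands for is not in the labels. The members, roles and lists were chosen with earlier results of these data known. Genes named are the 37 members, hMYC and, from each other list, up to 4 called genes per comparison with the largest change and a mean of at least 5 CPM in 1 group. Some genes this rule names are not reported here. E box, sterol core and CCAAT letters were searched in RefSeq promoters of 30 members. Deposited columns other than counts and TPM were not used.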

Additional observations from a re-analysis of the deposited data

How the results depend on the processing

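Across 18 alternatives, the genes lower in MYC off against MYC on numbered 23 to 25 (24 as reported; 23 to 25 leaving out 1 library) and those higher 2 or 3, with a median log2 fold change of −0.72 to −0.65 over the libraries left out, the lower end without MYC off replicate 1. In MYC intermediate against MYC on, 17 to 22 were lower on leaving out 1 library or under the other fits, 24 at an adjusted p under 0.05, and 1 or 2 were higher on leaving out 1 library (1 when replicate 1 or 2 of MYC on, or replicate 3 of MYC intermediate, was omitted), and 3 with a minimum of 1 CPM in 3 libraries or at an adjusted p under 0.05. In MYC off against MYC intermediate, 19 to 24 were lower and 0 higher. Off the midpoint there were 3 genes (Scd1, Srebf1 and Fasn) without the count filter and 2 at an adjusted p under 0.05, against 1. The fit with the replicate block gave 24, 22 and 23 lower genes in the 3 comparisons, and changed no call of a member beside those of Idi1, Sc5d and Elovl1.

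A count chosen after seeing the data covered the 21 genes without a counted exon partner and with at most 5% of windows shared. It gave 13, 10 and 12 lower genes, 2, 1 and 0 higher and medians of −0.56, −0.24 and −0.28 in the same order. The smaller counts follow in part from the smaller number of genes. Of all tested genes, 27.4%, 17.2% and 14.7% were lower and 27.5%, 17.4% and 9.95% higher in the same order of comparisons. Calls lost under at least 1 alternative were Insig1 and Abcg1 (MYC off against MYC on), Pmvk, Elovl1, Fads1 and Abcg1 (MYC intermediate against MYC on) and Pmvk, Sc5d and Elovl5 (MYC off against MYC intermediate). Calls made only under an alternative were Hsd17b7 (MYC off against MYC on), Idi1, Insig1 (adjusted p = 0.0094 with the 1 CPM minimum), Mvk and Sc5d (MYC intermediate against MYC on) and Elovl1 (MYC off against MYC intermediate). A change of sign occurred only for log2 fold changes near 0 that passed no test. Acss2 in MYC off against MYC on was −0.0070 in a fit of only the 6 libraries compared and −0.0092 after thinning to the smallest total, and −0.027 to 0.062 leaving out 1 library. In MYC intermediate against MYC on, Insig2 was 0.0071 without the count filter and 0.0010 with the replicate block. Leaving out 1 library there gave −0.044 to 0.046 for Insig2, −0.081 to 0.049 for Srebf2 and −0.092 to 0.35 for Acacb. In MYC off against MYC intermediate, Ebp was 0.031 by library size alone, and Fads1 was −0.011 without the count filter and −0.0064 after thinning. Leaving out 1 library there gave −0.11 to 0.14 for Tm7sf2, −0.088 to 0.026 for Ebp and −0.032 to 0.083 for Fads1. The cause was not tested.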
